A study of Mus musculus with 12 samples.

Results

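The genes that are read as the output and the feedback of the ERK pathway were followed through 4 cell groups, 10 genes in all: the transcription factors Etv1, Etv4 and Etv5, the pathway inhibitors Spry1, Spry2, Spry4, Spred1 and Spred2, and the ERK phosphatases Dusp4 and Dusp6. They were taken by symbol. All 10 had a line in each of the 12 expression tables, which list 53932 gene identifiers, and all 10 were among the 16982 genes that passed the filter on low values and were tested.

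The ERK pathway carries a signal from a receptor tyrosine kinase at the cell surface to the nucleus. A bound growth factor activates the receptor, RAS and the kinases RAF, MEK and ERK follow in turn, and ERK phosphorylates transcription factors. Among its targets are Etv1, Etv4 and Etv5, the ETS factors of the PEA3 group, which are well known as readouts of FGF signalling in the embryonic nervous system. The Sprouty, Spred and Dusp6 genes are switched on by the same signal and dampen it: Sprouty proteins act between the receptor and RAF, Spred proteins hold RAS inactive together with neurofibromin, and the dual-specificity phosphatases remove the activating phosphates from ERK. Their transcript levels are therefore used as an indirect readout of growth factor signalling. Phosphorylated ERK was not measured in the data used here.

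Total RNA of mouse C57BL/6 cells was sequenced in 12 libraries, 3 in each of 4 groups, and given as FPKM, the fragments of a gene scaled to its transcript length and to the fragments of the library. Astrocytes were cultured in medium with 10% serum. MIM-Astrocytes were astrocytes moved to MIM, a medium without serum that holds FGF2 at 20 ng/mL and up to 6 of a set of metabolites (the amino acids cysteine, glycine, methionine and threonine, the polyamine putrescine and the methyl donor S-adenosylmethionine), and they were taken at day 5 or earlier. NSC were neural stem cells grown as neurospheres with EGF and FGF2 at 20 ng/mL each. The labels place these 3 groups at cortex and embryonic day 14.5, and the protocol names both postnatal cortex, sorted for the surface protein GLAST, and neurospheres as sources of astrocytes without saying which was used. Glioblastoma is labelled with cerebella and E18.5, and neither the origin of the tumour cells nor their medium or mutations are given. No allele, transgene or Cre is named for any group. The groups thus differ in medium, growth factors, serum and, for Glioblastoma, tissue and age at once, and the parts of these in a difference cannot be told apart. Whether the 3 libraries of a group stem from different cultures or mice is not stated, and the p-values therefore cover library-to-library spread, which may be technical.

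Depth is unknown because no counts were used here. Between 14461 and 14919 genes reached 1 FPKM in each library. For genes near 10 FPKM the authors' interval reached above the value by 8.55% to 10.65% of it at the median. The FPKM of a library summed to between 514728 and 979106. Astrocyte markers (8 genes, Gfap and Slc1a3 among them) were all above a mean of 1 FPKM in Astrocytes and MIM-Astrocytes, Gfap was below it in NSC and Aqp4 was below it in Glioblastoma. The 8 neural stem cell markers were all above 1 FPKM in NSC. The 8 microglial markers were all below 1 FPKM in every group. Of 8 markers of meningeal fibroblasts, 4 were above 1 FPKM in Astrocytes, and the 8 summed to 280.6 to 329.1 FPKM there, against 19.4 to 22.2 in MIM-Astrocytes, 1.13 to 1.41 in NSC and 0.417 to 0.682 in Glioblastoma. Nearly all of the Astrocytes sum came from Ogn (mean 163.8), Islr (92.6) and Fmod (43.1), with Col1a1 at 2.69. Col1a2 and Dcn, defining genes of fibroblasts, were below 0.1 FPKM in every group, and Lum was at 0 in Astrocytes, MIM-Astrocytes and NSC. The 7 proliferation markers summed to 25.8 to 35.9 FPKM in Astrocytes, 530.5 to 571.2 in MIM-Astrocytes, 166.4 to 196.0 in NSC and 547.0 to 585.4 in Glioblastoma. The 8 oligodendrocyte lineage markers summed to 62.2 to 72.6 FPKM in Astrocytes, against 437.8 to 506.3, 387.2 to 451.7 and 324.2 to 331.1 for MIM-Astrocytes, NSC and Glioblastoma, and Olig2 averaged 3.63 FPKM in Astrocytes against 95, 104.2 and 105.3. Olig1 was the largest part of the sums in MIM-Astrocytes (365.9), NSC (258.0) and Glioblastoma (195.7). Unlike Olig1, Pdgfra, Cspg4, Sox10 and Mbp were lower in MIM-Astrocytes (2.52, 4.77, 0.128 and 0.113 FPKM) than in NSC (24.4, 7.21, 2.73 and 1.24). Neural stem cell markers summed to 854.4 to 1072 FPKM in Astrocytes and 4253 to 4634 in MIM-Astrocytes, with 2869 to 3383 in NSC and 936.4 to 1081 in Glioblastoma, and 6 of 8 were called higher in MIM-Astrocytes than in Astrocytes. Gfap averaged 257.9 FPKM in Astrocytes and 7.35 in MIM-Astrocytes, with 0.964 in NSC and 3.2 in Glioblastoma. The proliferation and oligodendrocyte lineage sums were lowest in Astrocytes, as was the sum of the member genes. The same held for 8 neuron markers, with sums of 109.5 to 116.1 FPKM in Astrocytes and 171.4 to 321.0 in the other groups. It also held for 8 endothelial and mural markers, with 3.86 to 4.09 FPKM in Astrocytes and 4.78 to 15.8 in the others. Other lists took another course. The astrocyte marker sums overlapped between Astrocytes (1844 to 2155 FPKM) and MIM-Astrocytes (1718 to 2100), though single genes moved in opposite directions. Aqp4 averaged 397.1 FPKM in Astrocytes and 35.5 in MIM-Astrocytes, and Slc1a3 averaged 395.7 and 860.0. The neural stem cell marker sums overlapped between Astrocytes and Glioblastoma, and the microglial markers stayed low throughout. Fabp7 was the largest part of the neural stem cell sum in every group, with 796.1 FPKM in Astrocytes and 4058 in MIM-Astrocytes. It averaged 2696 in NSC and 693.9 in Glioblastoma. Of the 8 genes of that list, 4 were called higher and 2 lower in Glioblastoma than in Astrocytes (47% and 31.3% of all tested genes). The part of these lists in the results was not tested. In such bulk samples a change in the number of cells of a type and a change in RNA per cell cannot be told apart.

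Promoter sequence is shown for 3 members because it bears on Capicua, a repressor that ERK signalling inactivates and that is known to bind a short octamer at PEA3, Sprouty and Dusp genes. RefSeq windows on GRCm38.p6, from 250 bases before to 50 after a start site, were used for 7 members (9 windows, with 2 each for Etv1 and Etv5). None was found for Etv4 and Dusp4. Spry4 was left out of the search, so the counts of member windows below do not cover it. The stretches below run 5′ to 3′ on the gene's strand from 140 bases before to 20 bases after the start site, which is counted as 0, so each ends in the first transcribed bases, and capitals mark the octamer, which lies on the opposite strand.
Dusp6, chr10:99263091-99263251, plus strand: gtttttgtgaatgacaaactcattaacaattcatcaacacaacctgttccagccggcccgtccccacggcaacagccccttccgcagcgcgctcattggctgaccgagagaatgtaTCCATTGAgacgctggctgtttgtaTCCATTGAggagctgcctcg
Spry2, chr14:105896799-105896959, minus strand: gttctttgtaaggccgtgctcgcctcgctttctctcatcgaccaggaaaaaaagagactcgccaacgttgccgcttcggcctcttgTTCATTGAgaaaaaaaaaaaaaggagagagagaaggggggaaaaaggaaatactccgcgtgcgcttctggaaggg
Etv5, first window, chr16:22439550-22439710, minus strand: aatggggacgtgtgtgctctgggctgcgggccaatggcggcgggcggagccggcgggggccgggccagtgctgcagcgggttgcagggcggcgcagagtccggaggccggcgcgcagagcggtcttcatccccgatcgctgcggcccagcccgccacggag
Dusp6 held 2 octamers, at -24 to -17 and at 1 to 8, both read as TCCATTGA on the gene's strand, and Spry2 held 1, at -54 to -47, read as TTCATTGA. The search took the letters TGAATGGA, TGAATGAA, TCAATGGA and TCAATGAA on both strands. These occurred in 2 of the 9 member windows and in 3.84% of all 32851 windows of the same length. Etv5 is shown because its levels followed those of Spry2 most closely (given further on), and neither of its windows held the octamer. An ETS site (CCGGAAG) was in 8.86% of all windows, an AP-1 site (TGANTCA) in 7.81%, a cAMP response element (TGACGTCA) in 1.79% and a serum response element in 1.63%, and none of these was in a member window. A match of letters does not show that a factor was bound, and the absence of one covers these windows and these letters only. Other forms of an ETS site than CCGGAAG were not searched, so member windows may hold them.

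The summed level of the 10 genes was lowest in Astrocytes, between 45.0 and 45.3 FPKM in the 3 libraries. It was between 217.8 and 228.6 in MIM-Astrocytes, between 187.0 and 214.6 in NSC and between 945.5 and 975.4 in Glioblastoma. Glioblastoma held the highest mean of every member except Etv1, which was highest in NSC, and Astrocytes held the lowest mean of every member. For Spred2 the means of Astrocytes and NSC lay within their spread (2.48 and 2.61 FPKM), and their order turned under scaling to a common FPKM total.

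**Figure D1:**
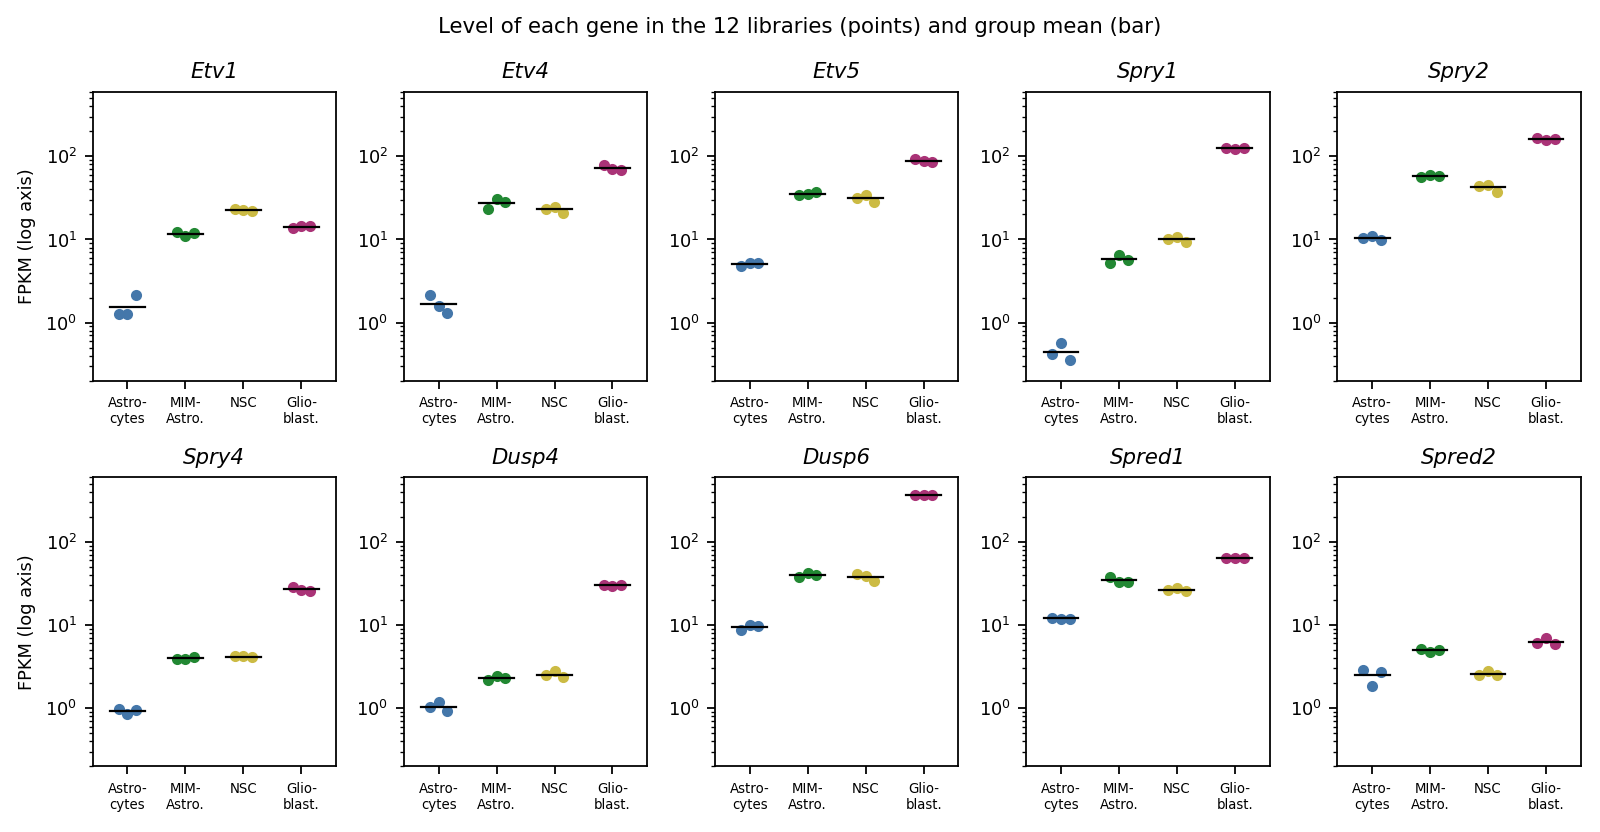
FPKM (log axis) of each of the 10 genes in the 12 libraries, 3 points per group, with a bar at the group mean. Astrocytes lie lowest in each panel, except that Spred2 of Astrocytes (1.84 to 2.84) overlaps NSC (2.49 to 2.81), and Glioblastoma lies highest in each panel but that of Etv1.

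The PEA3 factors were low in Astrocytes and several-fold higher elsewhere. Etv5 measured 4.77, 5.15 and 5.23 FPKM in Astrocytes and 34.6, 34.9 and 36.8 in MIM-Astrocytes, with 31.6, 33.9 and 28.3 in NSC and 92.5, 87.7 and 86.3 in Glioblastoma. No group overlapped another. The difference of log2(FPKM + 1), the scale of every fitted difference below, was 2.59 (SE 0.07) between MIM-Astrocytes and Astrocytes, a 7.02-fold ratio of mean FPKM (limma, Benjamini-Hochberg adjusted p = 3.07e-10). Against NSC, Etv5 was 0.18 higher in MIM-Astrocytes (SE 0.07, adjusted p = 0.0405), a call lost under several alternatives (adjusted p up to 0.136 without NSC replicate 3). Glioblastoma exceeded NSC by 1.48 (adjusted p = 1.7e-08).

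Etv4 measured 2.17, 1.58 and 1.32 FPKM in Astrocytes and 23.1, 30.4 and 28.2 in MIM-Astrocytes, with 23.3, 24.8 and 21.0 in NSC and 79.0, 71.4 and 69.2 in Glioblastoma. MIM-Astrocytes and NSC overlapped, and the other groups stood apart. Etv4 had the largest difference of the 10 genes between MIM-Astrocytes and Astrocytes, 3.4 (SE 0.13), a 16.1-fold ratio (adjusted p = 4.74e-09), and it ranked 167 of the 16982 tested genes from the top. Between MIM-Astrocytes and NSC the difference was 0.23 (95% interval -0.07 to 0.53, adjusted p = 0.157), and it was called when MIM-Astrocytes replicate 1 was left out (0.34, adjusted p = 0.0495). Glioblastoma exceeded NSC by 1.63 (adjusted p = 1.2e-06) and Astrocytes by 4.8, a 43.3-fold ratio (28.7-fold with a common FPKM total; adjusted p = 1.52e-10).

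Etv1, the third PEA3 factor, had another order. It measured 1.25, 1.26 and 2.15 FPKM in Astrocytes and 12.2, 11 and 11.8 in MIM-Astrocytes, with 23.1, 22.9 and 21.9 in NSC and 13.6, 14.4 and 14.4 in Glioblastoma. All 4 groups stood apart, with NSC on top. MIM-Astrocytes exceeded Astrocytes by 2.33 (SE 0.11, adjusted p = 3.11e-08) and lay below NSC, with a difference of -0.9 (SE 0.11, adjusted p = 7.2e-05). Glioblastoma also lay below NSC (-0.64, SE 0.11, adjusted p = 0.000471), the single member of which this held. Glioblastoma and MIM-Astrocytes differed by 0.26 (adjusted p = 0.0596), which became a call with only those 6 libraries fitted (adjusted p = 0.00584) or without Astrocytes replicate 3 (adjusted p = 0.000921), the library with 2.15 FPKM.

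Among the Sprouty genes, Spry2 had the highest level in each group. It measured 10.4, 11 and 9.94 FPKM in Astrocytes and 55.8, 58.9 and 57.9 in MIM-Astrocytes, with 43.9, 45.8 and 37.4 in NSC and 167.6, 158.4 and 160.7 in Glioblastoma. No group overlapped another. The step from Astrocytes to MIM-Astrocytes was 2.35 (SE 0.07), a 5.5-fold ratio (adjusted p = 1.08e-09), and MIM-Astrocytes exceeded NSC by 0.44 (SE 0.07, adjusted p = 0.000519). Glioblastoma exceeded NSC by 1.92 (adjusted p = 5.14e-09).

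Spry1, the Sprouty gene of lowest level in Astrocytes, changed over the widest range. It measured 0.423, 0.561 and 0.353 FPKM in Astrocytes and 5.21, 6.43 and 5.61 in MIM-Astrocytes, with 10.1, 10.7 and 9.33 in NSC and 125.7, 123.2 and 126.1 in Glioblastoma. The groups did not overlap. MIM-Astrocytes exceeded Astrocytes by 2.22 (SE 0.08, adjusted p = 2.5e-09) and lay below NSC by a difference of -0.71 (SE 0.08, adjusted p = 2.76e-05). Glioblastoma had a 12.5-fold ratio to NSC (difference 3.52, adjusted p = 1.19e-10), and its difference from Astrocytes, 6.45 (SE 0.08, adjusted p = 1.23e-12), ranked 11 of the 16982 tested genes. The mean in Astrocytes was below 1 FPKM, where the added 1 shrinks the fitted difference.

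Spry4 measured 0.988, 0.845 and 0.948 FPKM in Astrocytes and 3.92, 3.9 and 4.15 in MIM-Astrocytes, with 4.23, 4.19 and 4.13 in NSC and 28.8, 26.7 and 25.4 in Glioblastoma. MIM-Astrocytes and NSC overlapped. They differed by -0.05 (95% interval -0.18 to 0.07, adjusted p = 0.418), whereas MIM-Astrocytes exceeded Astrocytes by 1.37 (SE 0.05, adjusted p = 6.61e-09). In Glioblastoma Spry4 stood 2.43 above NSC (SE 0.05, adjusted p = 1.28e-10), a 6.45-fold ratio. Gene models on the opposite strand overlap Spry1 (Gm42922) and Spry4 (Gm27369 and Gm27804), and since the strandedness of the counting is not given, their reads cannot be told apart.

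Dusp6, the cytoplasmic phosphatase with a preference for ERK, reached the highest level of all 10 genes. It measured 8.82, 10.0 and 9.7 FPKM in Astrocytes and 38.0, 42.7 and 39.7 in MIM-Astrocytes, with 41.1, 39.0 and 34.3 in NSC and 366.9, 363.0 and 370.9 in Glioblastoma. MIM-Astrocytes and NSC overlapped, with a difference of 0.07 (95% interval -0.1 to 0.25, adjusted p = 0.423). MIM-Astrocytes exceeded Astrocytes by 1.97 (SE 0.07), a 4.22-fold ratio (adjusted p = 4.73e-09). Glioblastoma exceeded NSC by 3.24 (SE 0.07), a 9.62-fold ratio (adjusted p = 1.55e-10), rank 81 of the tested genes.

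Dusp4, a nuclear phosphatase of the same family, was low outside the tumour cells. It measured 1.03, 1.17 and 0.931 FPKM in Astrocytes and 2.18, 2.42 and 2.31 in MIM-Astrocytes, with 2.48, 2.77 and 2.36 in NSC and 30.2, 29.4 and 30.6 in Glioblastoma. MIM-Astrocytes and NSC overlapped (difference -0.1, 95% interval -0.24 to 0.04, adjusted p = 0.196), a difference that was called under median-of-ratios scaling (-0.14, adjusted p = 0.0284). MIM-Astrocytes exceeded Astrocytes by 0.69 (SE 0.06, adjusted p = 3.41e-06), the smallest difference of the 10 genes on the log2(FPKM + 1) scale, where the added 1 shrinks low genes. By the ratio of mean FPKM, Dusp4 (2.2-fold) was above Spred2 (2.0-fold). From NSC to Glioblastoma it rose by 3.14 (SE 0.06, adjusted p = 5.02e-11), an 11.9-fold ratio and rank 95 of the tested genes.

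The Spred genes spanned narrower ranges. Spred1 measured 12.3, 11.8 and 11.8 FPKM in Astrocytes and 37.6, 33.2 and 33.1 in MIM-Astrocytes, with 26.5, 27.9 and 25.7 in NSC and 64.9, 64.2 and 63.6 in Glioblastoma. The groups did not overlap. MIM-Astrocytes exceeded Astrocytes by 1.45 (SE 0.06, adjusted p = 5.09e-09) and NSC by 0.36 (SE 0.06, adjusted p = 0.000297), and Glioblastoma exceeded NSC by 1.24 (adjusted p = 1.69e-08).

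Spred2 measured 2.84, 1.84 and 2.75 FPKM in Astrocytes and 5.14, 4.75 and 5.0 in MIM-Astrocytes, with 2.49, 2.81 and 2.52 in NSC and 6.11, 6.97 and 5.87 in Glioblastoma. Astrocytes and NSC overlapped, and no difference was detected between them (0.07, 95% interval -0.19 to 0.32, adjusted p = 0.61); the sign turned under scaling to a common FPKM total (-0.23) and without Astrocytes replicate 2 (-0.07). MIM-Astrocytes exceeded Astrocytes by 0.79 (SE 0.11, adjusted p = 0.000112) and NSC by 0.73 (SE 0.11, adjusted p = 0.000266). Glioblastoma exceeded MIM-Astrocytes by 0.29 (SE 0.11, adjusted p = 0.0349), a call lost under both other scalings (adjusted p = 0.362 and 0.77) and in 5 of the 12 fits that leave out a library.

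**Figure D2:**
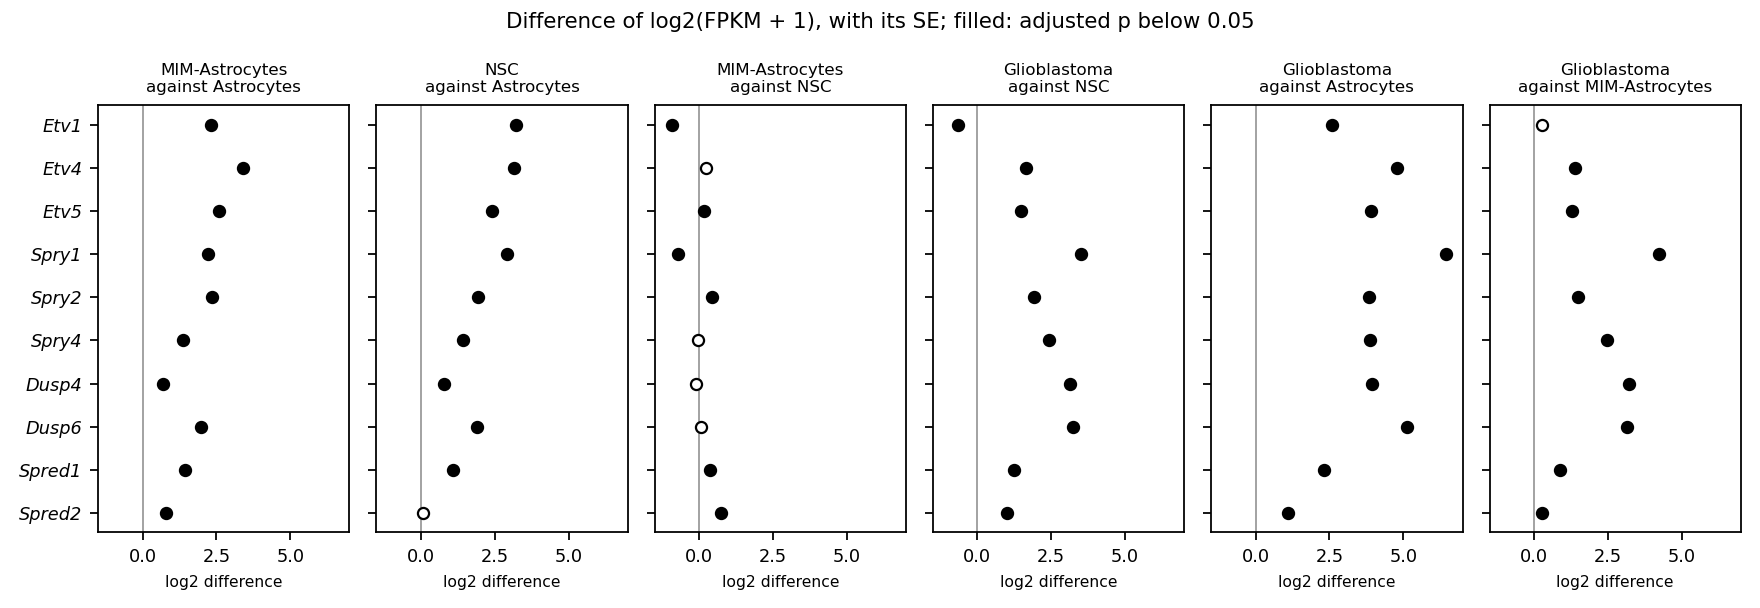
Difference of log2(FPKM + 1) for each gene (x axis, log2 units) in the 6 comparisons, with its SE, filled where the adjusted p was below 0.05. The 10 genes are all to the right of 0 against Astrocytes, scatter around 0 between MIM-Astrocytes and NSC (-0.9 to 0.73), and lie to the right again for Glioblastoma except Etv1 against NSC (-0.64).

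Set side by side, the 6 comparisons gave these counts. Between MIM-Astrocytes and Astrocytes all 10 genes were called higher, where 34.8% of the tested genes were called higher, 26.6% lower and 61.4% either way. The 10 genes had a median difference of 2.09, and the median over all tested genes was 0.09. Between NSC and Astrocytes 9 of 10 were called higher (37.7% of all tested genes were, with 33.4% lower and 71.2% either way), with a median of 1.9 against 0.07. These comparisons share the Astrocytes libraries, so their likeness is not a separate result.

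Between MIM-Astrocytes and NSC 4 genes were called higher (Etv5, Spry2, Spred1 and Spred2), 2 were called lower (Etv1 and Spry1) and 4 were not called (Etv4, Spry4, Dusp4 and Dusp6). Of all tested genes, 31% were called higher and 24.9% lower, or 55.9% in all, so 6 called of 10 is close to the background. The median difference of the 10 genes was 0.13, and it was 0.02 over all tested genes.

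Glioblastoma against NSC gave 9 genes called higher and 1 lower, where 44.8% of tested genes were called higher, 25.1% lower and 69.9% either way, and a median of 1.77 against 0.19. Against Astrocytes all 10 were called higher (47% of tested genes were, with 31.3% lower and 78.3% either way), with a median of 3.88 against 0.23. Against MIM-Astrocytes 9 of 10 were called higher (41.5% of tested genes were, with 28.3% lower and 69.8% either way), with a median of 1.44 against 0.13. These 3 comparisons share the Glioblastoma libraries.

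The share of higher genes among all called genes moved with the scaling. It went from 56.7% to 32.1% for MIM-Astrocytes against Astrocytes, from 53% to 32.5% for NSC against Astrocytes and from 59.5% to 44.4% for Glioblastoma against MIM-Astrocytes when libraries were brought to a common FPKM total. For Glioblastoma against Astrocytes it went from 60% to 36.9% under that scaling and to 49.2% under median-of-ratios scaling, and for Glioblastoma against NSC from 64.1% to 52.8% and 51.6%. Over these 3 scalings the median difference of all tested genes ranged from -0.26 to 0.23, both for Glioblastoma against Astrocytes. Each member called in the original scaling kept its direction under both. Sizes moved: with a common FPKM total the members' ratios of Glioblastoma to Astrocytes were 1.51 to 1.58 times smaller, those of NSC to Astrocytes 1.31 to 1.35 times and those of MIM-Astrocytes to Astrocytes 1.26 to 1.29 times. Etv1 then had a ratio of 0.997 between Glioblastoma and MIM-Astrocytes, against 1.22 as deposited.

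Within the families the makeup differed between groups. Etv, Sprouty, Spred and Dusp genes were summed in FPKM, which is scaled by transcript length. The Sprouty genes summed to 11.8 ± 0.602 FPKM (SD, n = 3) in Astrocytes and 67.3 ± 2.17 in MIM-Astrocytes, with 56.6 ± 5.06 in NSC and 314.2 ± 7.15 in Glioblastoma. Spry2 supplied 88.4% of the Astrocytes sum, 85.5% of that in MIM-Astrocytes, 74.8% for NSC and 51.6% for Glioblastoma, while the share of Spry1 went from 3.74% through 8.53% and 17.8% to 39.8%. The ranges of the Spry1 share did not overlap between groups.

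The Etv sum was 8.29 ± 0.368 FPKM in Astrocytes and 74.4 ± 3.81 in MIM-Astrocytes, with 76.9 ± 5.26 in NSC and 176.2 ± 7.9 in Glioblastoma (SD, n = 3 each). The sums of MIM-Astrocytes and NSC differed by less than 1 SD, but their makeup did not match: Etv1 was 15.7% of the sum in MIM-Astrocytes and 29.5% in NSC. In Glioblastoma Etv1 fell to 8.06%, and Etv5 (50.4%) and Etv4 (41.5%) made up nearly all. Dusp6 supplied 90.1% to 94.6% of the Dusp sum in every group, which was 10.6 ± 0.679 FPKM in Astrocytes and 397.0 ± 4.53 in Glioblastoma. Spred1 supplied 83.0% to 91.1% of the Spred sum, which was 14.5 ± 0.737 FPKM in Astrocytes and 70.6 ± 0.915 in Glioblastoma.

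**Figure D3:**
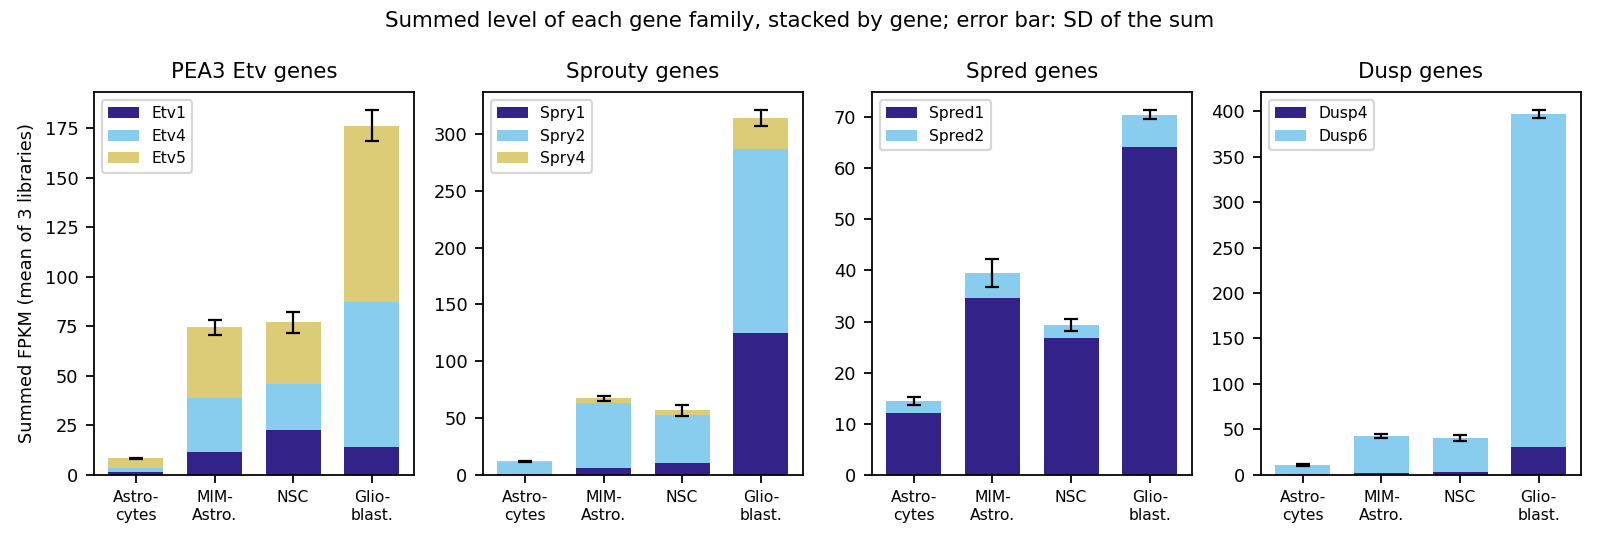
Summed FPKM of the PEA3 Etv, Sprouty, Spred and Dusp genes in each group (mean of 3 libraries), stacked by gene, with the SD of the sum as error bar. The Sprouty bar of Glioblastoma (314.2) is mostly Spry2 and Spry1, that of Astrocytes (11.8) almost only Spry2, and the Etv bars of MIM-Astrocytes (74.4) and NSC (76.9) are of like height with a larger Etv1 part in NSC.

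Profiles over the 12 libraries were compared by the root-mean-square difference of log2(FPKM + 1) after centring each gene, a description over libraries that share their groups. Etv5 and Spry2 were the closest pair (0.2), followed by Spry4 with Dusp4 (0.36) and Etv4 with Etv5 (0.39). Spry1 and Spred2 were the farthest apart (1.99), and Etv1 with Spry1 came to 1.74. Among 10099 other protein-coding genes, the closest to Etv5 were Kcnip3 (0.17), Rtkn2 (0.19), Sorcs2 (0.2) and Prim1 (0.22). Those closest to Spry4 were P2rx7 (0.2), Adamts4 (0.21), Mthfd1l (0.23) and Irx1 (0.25). For Dusp6 they were Jag1 (0.12), Shc4 (0.31), Camk2b (0.39) and Tle2 (0.42). Jag1, which encodes a Notch ligand, averaged 45.2 FPKM in Glioblastoma, 4.28 in MIM-Astrocytes, 3.71 in NSC and 0.186 in Astrocytes. Dusp6 averaged 9.52 in Astrocytes, and there Rtkn2 was at 0.0383 against 5.05 for Etv5. The added 1 shrinks differences at such low values, so a small distance on this scale is not a like ratio of FPKM.

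The other genes of the pathway are given by role, beside the shares of all tested genes that were called in the same comparison. Of 18 growth factor ligand genes 11 were tested, and between MIM-Astrocytes and Astrocytes 2 were called higher and 7 lower (34.8% and 26.6% of all tested genes), with a median difference of -1.25. Hbegf, which encodes an EGF receptor ligand, measured 61.5, 67.2 and 54.5 FPKM in Astrocytes and 6.02, 6.05 and 5.83 in MIM-Astrocytes (difference -3.15, adjusted p = 4.45e-10). Nrg1, an ERBB receptor ligand, fell from a mean of 5.59 to 0.708 FPKM (difference -1.95, adjusted p = 2.48e-08). Vegfa, the vascular growth factor, went the other way, from 7.48 to 30.6 FPKM (difference 1.9, adjusted p = 3.55e-08), and it was at 5.34 in NSC and 179.6 in Glioblastoma. Between MIM-Astrocytes and NSC 7 ligand genes were called higher and none lower (31% and 24.9% of all tested genes), and between Glioblastoma and NSC 6 higher and 2 lower (44.8% and 25.1%). Areg, among those 6, reached 1 FPKM only in Glioblastoma and passed the filter through it, which set its direction. Hgf and Igf1, among the 7 called lower in MIM-Astrocytes than in Astrocytes, passed only through Astrocytes.

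Among 14 receptor tyrosine kinase genes 11 were tested, and 5 were called higher and 2 lower in MIM-Astrocytes than in Astrocytes, 7 of 11 called against 61.4% of all tested genes, which is near the background. Egfr, the EGF receptor, measured 19.7, 20.4 and 19.7 FPKM in Astrocytes and 138.1, 150.0 and 165.8 in MIM-Astrocytes, with 167.0, 173.4 and 170.6 in NSC and 12, 13.5 and 12.9 in Glioblastoma. It was thus high in MIM-Astrocytes and NSC and lowest in Glioblastoma, the group with the highest output genes. The difference between MIM-Astrocytes and Astrocytes was 2.86 (adjusted p = 1.76e-10), and that between Glioblastoma and NSC was -3.64 (adjusted p = 4.25e-11).

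The FGF receptors, through which the FGF2 of the media acts, did not rise together. Between MIM-Astrocytes and Astrocytes Fgfr3 rose from 50.3 to 93.4 FPKM (difference 0.88, adjusted p = 2.08e-06), Fgfr2 fell from 86.0 to 50.2 (-0.77, adjusted p = 6.89e-05), and Fgfr1 measured 95.3 and 83.8 (-0.19, adjusted p = 0.135; called under both other scalings, with adjusted p = 0.0396 and 0.00635). In Glioblastoma Fgfr3 was at 11 and Fgfr2 at 6.38 FPKM, both lower than in NSC (differences -3 and -1.92, adjusted p = 2.14e-10 and 4.97e-08). Fgfr1 averaged 45.2 FPKM in Glioblastoma and 48.7 in NSC and was not called. Under median-of-ratios scaling it was called lower (-0.34, adjusted p = 0.0208). Ntrk2, the BDNF receptor, rose from 191.7 to 304.8 FPKM in MIM-Astrocytes (0.67, adjusted p = 2.32e-06) and was at 13.9 in Glioblastoma. Pdgfra, the PDGF receptor of oligodendrocyte precursors, rose from 0.375 to 2.52 FPKM in MIM-Astrocytes (1.35, adjusted p = 3.73e-09), with 24.4 in NSC and 10.3 in Glioblastoma, and Met, the HGF receptor, fell from 3.89 to 0.249 (-1.97, adjusted p = 7.52e-09). Met reached 1 FPKM only in Astrocytes and passed the filter through them, which set its direction. Of the 11 tested receptor genes 8 were called lower and 2 higher in Glioblastoma than in NSC (25.1% and 44.8% of all tested genes), with a median of -1.92.

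The 19 genes of the cascade between receptor and ERK were all tested. Between MIM-Astrocytes and Astrocytes 4 were called higher and 6 lower, with a median of 0.02 (0.09 over all tested genes). That is 10 of 19 called, below the 61.4% called among all tested genes. Nras rose from 28.4 to 68.6 FPKM (1.24, adjusted p = 3.8e-06), Braf fell from 28.0 to 10.2 (-1.37, adjusted p = 2.21e-06), and Shoc2, which promotes RAF activation, fell from 14.1 to 9.72 (-0.5, adjusted p = 9.03e-06). Mapk3, which encodes ERK1, fell from 23.1 to 11.6 (-0.94, adjusted p = 4.1e-05). In Glioblastoma 12 cascade genes were called higher than in NSC and 3 lower (44.8% and 25.1% of all tested genes), with a median of 0.52 against 0.19.

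Of 17 other inhibitor genes 14 were tested, and 6 were called higher and 3 lower in MIM-Astrocytes than in Astrocytes, 9 of 14 called against a background of 61.4%, which is near it. Lrig1, which promotes the breakdown of EGF receptors, rose from 105.8 to 172.2 FPKM (0.7, adjusted p = 4.01e-06), and Rasa2, a GTPase-activating protein for RAS, from 5.1 to 11.4 (1.03, adjusted p = 3.68e-05). Pea15a, whose protein holds ERK in the cytoplasm and is abundant in astrocytes, fell from 1656 to 491.5 FPKM (-1.75, adjusted p = 2.65e-08). Cic, which encodes Capicua, rose from 15.7 to 22.6 (0.5, adjusted p = 0.00485; not called with a common FPKM total, adjusted p = 0.352). Dusp1, an immediate-early phosphatase, measured 3.91 and 3.69 FPKM (-0.07, adjusted p = 0.506; called lower with a common FPKM total, -0.34, adjusted p = 0.00231).

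Of 17 other genes known as transcriptional outputs of ERK 15 were tested. In MIM-Astrocytes 4 were called higher and 6 lower than in Astrocytes, with a median of -0.07, and 10 of 15 called is near the 61.4% of all tested genes (34.8% higher, 26.6% lower). Whether this list differs from the 10 genes was not tested. Fos, an immediate-early AP-1 subunit, measured 16.9, 19.3 and 16.3 FPKM in Astrocytes and 2.58, 3.47 and 2.76 in MIM-Astrocytes, with 14.8, 14.5 and 14.1 in NSC and 34.8, 36.6 and 36.4 in Glioblastoma. MIM-Astrocytes were the lowest group for Fos and lay below Astrocytes by a difference of -2.24 (adjusted p = 5.1e-09). Egr1, another immediate-early factor, was also lowest there, with 1.28, 1.29 and 1.33 FPKM against 1.99, 1.79 and 1.97 in Astrocytes, 15.3, 15.7 and 16.3 in NSC, and 7.97, 8.36 and 7.38 in Glioblastoma. Its difference was -0.34 from Astrocytes (adjusted p = 0.000268) and -2.86 from NSC (adjusted p = 4.82e-10).

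Maff, a small MAF factor, fell from a mean of 5.72 FPKM in Astrocytes to 0.263 in MIM-Astrocytes (-2.41, adjusted p = 8.65e-10), and Epha2, an ephrin receptor, from 1.34 to 0.36 (-0.78, adjusted p = 1.12e-05). Epha2 reached 1 FPKM only in Astrocytes, so the filter set its direction in the counts against Astrocytes. Ccnd1, which encodes the G1 cyclin D1, rose from 6.72 to 23.7 FPKM (1.68, adjusted p = 4.21e-08), and Phlda1 from 0.587 to 1.95 (0.88, adjusted p = 2.95e-05). In NSC 9 of the 15 outputs were called higher than in Astrocytes and 4 lower (37.7% and 33.4% of all tested genes), with a median of 0.38. Between MIM-Astrocytes and NSC 3 of the 15 were called higher and 10 lower (31% and 24.9% of all tested genes), with a median of -0.53.

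In Glioblastoma most of the other tested outputs were high as well. Epha4 went the other way, with a mean of 1.63 FPKM against 23.7 in NSC, 15.4 in Astrocytes and 11.3 in MIM-Astrocytes. It was above 1 FPKM in every library but did not pass the status filter, so it is in no count. Against NSC 12 of 15 were called higher and 3 lower (median 0.63), where 44.8% and 25.1% of all tested genes were. Against MIM-Astrocytes 14 were higher and 1 lower (median 1.95), where 41.5% and 28.3% were. Plaur and Fosl1 are among the genes called higher in both. They reached 1 FPKM only in Glioblastoma, so they passed the filter through that group and their direction was set by it. Ccnd1 measured 354.8, 337.8 and 346.9 FPKM in Glioblastoma against 10.0, 11.2 and 8.65 in NSC, a 34.8-fold ratio (difference 4.99, adjusted p = 2.27e-11). Fos, Maff and Phlda1 were also higher than in NSC, by 1.26, 2.39 and 1.42 (adjusted p = 3.9e-07, 1.07e-09 and 5.85e-07). Egr1 was lower than in NSC, by a difference of -0.91 (adjusted p = 1.18e-07).

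**Figure D4:**
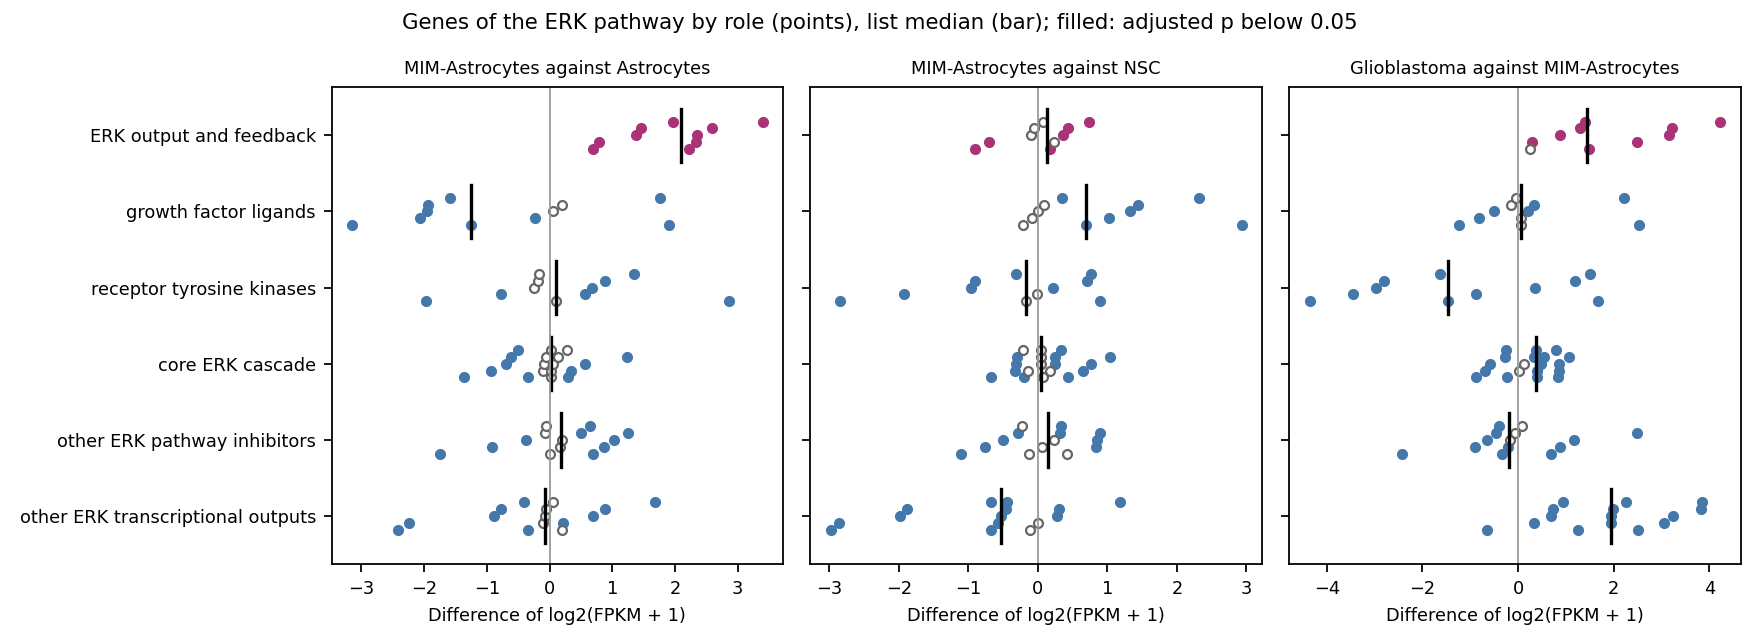
Difference of log2(FPKM + 1) (x axis) of each tested gene of the ERK pathway, by role, in 3 comparisons, filled where the adjusted p was below 0.05, with a bar at the list's median. The output and feedback genes lie to the right between MIM-Astrocytes and Astrocytes (median 2.09), where the ligands lie mostly to the left (median -1.25) and the other outputs on both sides (median -0.07); in Glioblastoma against MIM-Astrocytes both output lists lie to the right (medians 1.44 and 1.95).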

How the data were processed

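The authors deposited 1 table per library of FPKM per gene, each value with a status and lower and upper bounds, per the file headers. Cufflinks and the build GRCm38 are named in the submitters' processing notes, and the version, aligner and strandedness are not given in the sources used here. Values of 45 identifiers that stood on more than 1 line were added. No counts were used here, so depth is unknown. Groups were taken from the labels.

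Genes with at least 1 FPKM in 3 or more libraries and the status OK in all 12 were kept (16982 genes). Values were taken as log2(FPKM + 1) and fitted with limma 3.58.1 (R 4.3.3) in all 12 libraries together, each group having its own mean, which leaves 8 residual degrees of freedom, and with a variance trend. Each of 6 comparisons was tested two-sided and adjusted over all tested genes by Benjamini and Hochberg, with calls at 0.05. The fit was tested on simulated data. A fold change on this scale understates the change of low genes, so ratios of mean FPKM are given too. Intervals of differences are 95%. Promoter windows came from RefSeq on GRCm38.p6. Tables and figures were made with Python 3.11.15, pandas 2.3.3, NumPy 2.4.6 and matplotlib 3.10.9.

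The members and all lists were chosen with earlier results of these data known. Named are the 10 members, 14 pathway genes fixed by name (the rule held 1 more, which is not reported here), the 3 genes of each pathway list with the smallest p between MIM-Astrocytes and Astrocytes (called, and averaging 5 FPKM or more in the group where they were higher), and the 4 genes closest in profile to Etv5, Spry4 and Dusp6 (protein coding, tested, and at least 5 FPKM in the highest group). Markers of cell types, and genes named for how the filters treated them, come on top. Spry3, of the inhibitor list, is not analysed here. Alternatives were a pseudocount of 0.1, no filter, a stricter filter (a mean of 5 FPKM or more over the libraries), median-of-ratios and common-total scaling, a replicate block, fits with the 6 libraries compared, and leaving out each library.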

Additional observations from a re-analysis of the deposited data

How the results depend on the processing

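Of 60 differences (10 genes in 6 comparisons), 54 kept their direction and their side of the threshold under each of 19 alternatives in which they were tested, and 1106 of 1134 alternative fits did. Spred2 was not tested under the stricter filter. Spred2 between NSC and Astrocytes turned sign with a common FPKM total (-0.2292) and without Astrocytes replicate 2 (-0.07422; leaving out each library gave -0.07422 to 0.1425). The other changes concerned Etv5, Etv4 and Dusp4 between MIM-Astrocytes and NSC, and Spred2 and Etv1 between Glioblastoma and MIM-Astrocytes. Etv5 lost its call without a filter (adjusted p = 0.0854), under median-of-ratios scaling (0.0819) and a common total (0.114), with only 6 libraries (0.0996) and without 7 of the 12 libraries (0.0522 to 0.136). Spred2 lost its call at a pseudocount of 0.1 (0.0596), without a filter (0.0927), under median-of-ratios scaling (0.362) and a common total (0.77), and without 5 libraries (0.0542 to 0.123). Why these calls moved was not tested. Of 56 group means and family sums, 28 moved by more than 1 SD with a common total and 24 under median-of-ratios scaling. Of the other named genes, Dusp1 between MIM-Astrocytes and Astrocytes turned sign without MIM-Astrocytes replicate 1 (0.01066; leaving out each library gave -0.1225 to 0.01066). With a mean of at least 5 FPKM, 6807 genes were called for MIM-Astrocytes against Astrocytes, 7745 for NSC against Astrocytes, and for Glioblastoma 7681 against NSC, 8446 against Astrocytes and 7665 against MIM-Astrocytes, since only 10289 genes were tested. Leaving out each library gave 10 members called for MIM-Astrocytes against Astrocytes, 9 for NSC against Astrocytes, 5 to 6 between MIM-Astrocytes and NSC, and 10, 10 and 8 to 10 for Glioblastoma against NSC, Astrocytes and MIM-Astrocytes. Deviations from the group mean correlated weakly between libraries that share a replicate number (r from -0.058 to 0.097). For unlike numbers r was -0.121 to 0.074. Correlations this weak cannot decide whether the numbers pair libraries, and the main fit used no pairing. With a replicate block, 10454 genes were called between MIM-Astrocytes and Astrocytes and 9482 between MIM-Astrocytes and NSC, and the block ended the calls of Etv5 (0.0615) and Spred2 (0.0579) above. Depth is unknown. In Astrocytes the authors' interval reached above the value by a mean of 28.7% for Spry1, 35.8% for Etv4 and 18.3% for Etv1.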
